A study of Arabidopsis thaliana with 6 samples.

Results

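Plastid transcription in Arabidopsis thaliana depends on nuclear genes for its polymerases, their sigma factors and the proteins that surround the plastid chromosome, and 32 such genes are described here in epic2 and wild type plants. They were taken by name from the deposited expression table: 31 given loci (the proteins named PTAC for the plastid transcriptionally active chromosome, their known partners, sigma factors SIG1 to SIG6 and the phage-type polymerases), plus PTAC9, found by its name alone. They make up 32 of 26765 rows, and all 32 were tested by the authors. The genes were chosen with earlier results of these data known.

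Chloroplasts use a bacterial-type RNA polymerase whose core subunits are encoded in the plastid genome, and which works with nuclear-encoded sigma factors that direct it to promoters. A set of PEP-associated proteins (PEP stands for plastid-encoded polymerase) binds this core, and mutants that lack one of them are typically albino or pale, because photosynthesis genes of the plastid are then poorly transcribed. A second, phage-type polymerase of nuclear origin transcribes plastid housekeeping genes, including those for the core subunits of the bacterial-type enzyme.

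The samples were 3 of the genotype epic2 and 3 of the wild type, all in the Col-0 background, taken from the aerial parts of seedlings at 17 days of age and grown with 16 h of light at 24 °C. Which gene is altered in epic2 is not known from the labels, so its own level was not examined. The authors deposited 1 level per genotype and gene in FPKM (fragments counted per kilobase of transcript and scaled to the mapped fragments), with replicates pooled, so levels carry no spread between samples, and sequencing depth is unknown. Errors are the standard errors of the log2 ratio implied by the authors' test statistic, and a gene is called where the authors' q is under 0.05. The table names its groups epic2 and silex. The labels never mention silex, and it is read here as the wild type because epic2 and wild type are the only labelled groups. The labels call the samples biological replicates without saying whether plants were grown apart, so q-values may reflect technical spread only.

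Most of the plastid transcription genes were higher in epic2. Of the 32 members 22 were called higher, 0 lower and 10 did not pass the authors' Cuffdiff test. Over all 18916 tested rows 18.3% were called, 9.51% higher and 8.8% lower. For a comparison at similar level, the share was also taken over the 3135 tested rows within the interquartile range of the members' levels, 26.9 to 78.9 FPKM, where 17.5% were called higher and 11% lower. At a stricter q of 0.01, 19 members were higher against 5.92% of all tested rows, and at 0.10, 24 members against 11.8%. The changes were small: the 22 called members stood 1.19-fold to 1.59-fold higher in epic2, with a median of 1.35-fold. Over all 32 members the median log2 ratio of epic2 over wild type was 0.36, against 0.01 over all tested rows and 0.07 over those of similar level. The ratio was above 0 in 30 members and below 0 in 2, MURE and RPOTMP. Of the 18832 tested rows with levels above 0 in both genotypes 52.2% had a ratio above 0, and of those of similar level 61.3%.

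**Figure D1:**
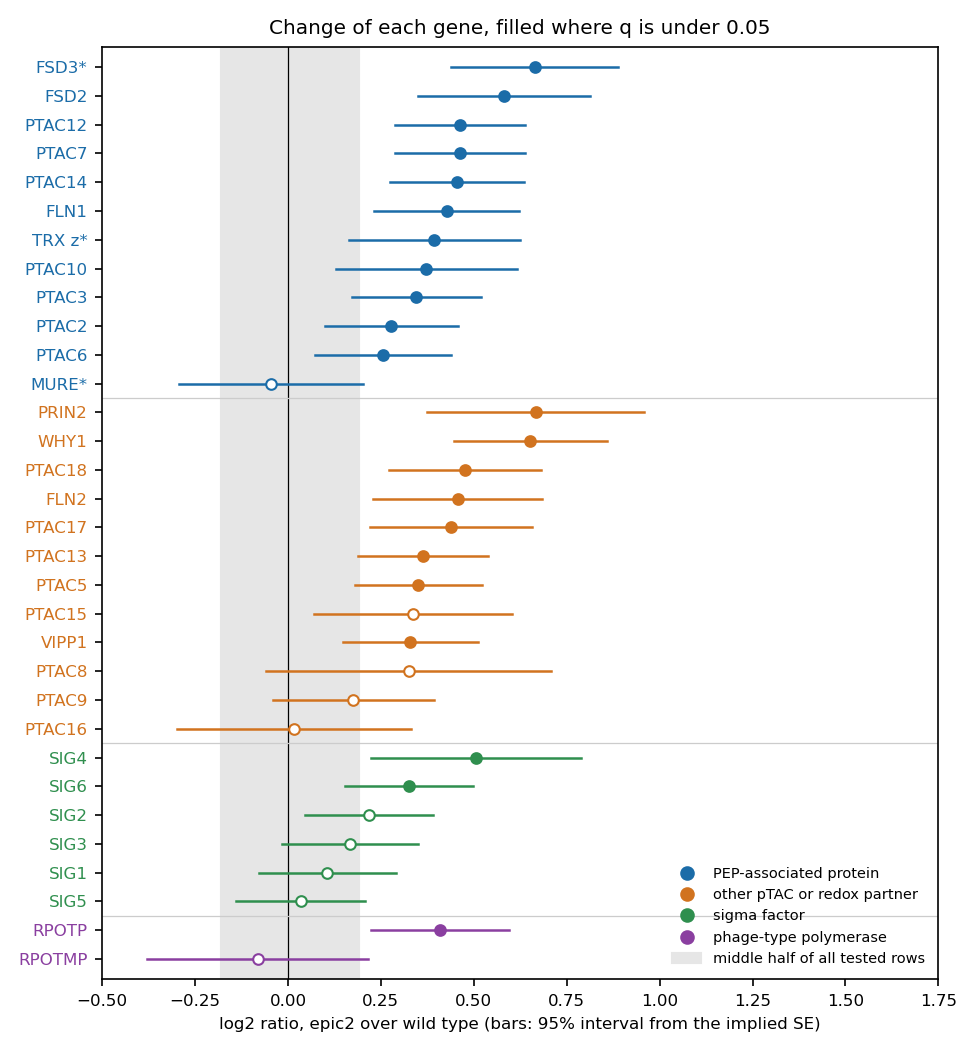
Log2 ratio of epic2 over wild type (x axis) for each of the 32 genes (y axis, grouped and coloured by role), with bars for the 95% interval from the implied standard error; filled points are called, the grey band is the interquartile range of all tested rows (-0.18 to 0.19), and an asterisk marks a row shared with another gene. All 22 filled points lie right of the band, between 0.26 and 0.67.

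Of the 12 PEP-associated proteins, which form the stable outer part of the bacterial-type polymerase, 11 rose and 1 did not pass. That is 91.7% called higher, against 9.51% of all tested rows and 17.5% of those of similar level. PTAC12 (AT2G34640, chromosome 2, 14581835 to 14584797 in TAIR10.1), also called HEMERA and known from phytochrome signalling, had 49.6 FPKM in epic2 and 35.9 FPKM in wild type plants. Its log2 ratio was 0.46 ± 0.09 (implied standard error), at a q of 4.51e-06 in the authors' deposited table. PTAC7 (AT5G24314, chromosome 5, 8277700 to 8279400), the most abundant of the 12, stood at 247.1 FPKM in epic2 and 179.3 FPKM in wild type plants. Its log2 ratio was 0.46 as well, at a much higher level. PTAC14, a SET domain protein, reached 48.6 FPKM in epic2, against 35.4 FPKM in wild type plants (q = 1.35e-05 in the authors' deposited table).

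The superoxide dismutase FSD2 (AT5G51100, chromosome 5, 20773235 to 20775739), which with FSD3 protects the plastid nucleoid from superoxide, had 31.7 FPKM in epic2 and 21.2 FPKM in wild type plants. This was the largest rise among PEP-associated proteins with a row of their own, at a log2 ratio of 0.58 ± 0.12 (implied standard error). FLN1, a fructokinase-like protein that binds the plastid thioredoxin TRX z, had 33.2 FPKM in epic2 and 24.7 FPKM in wild type plants. Its close relative FLN2 had 31.2 FPKM in epic2 and 22.8 FPKM in wild type plants, so that the ratio of FLN1 to FLN2 was 1.06 in epic2 and 1.08 in wild type. Both fructokinase-like genes were called higher.

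The other called PEP-associated proteins with a row of their own had smaller ratios. PTAC3, a SAP domain protein, had 35.9 FPKM in epic2 and 28.2 FPKM in wild type plants. PTAC10, which carries an S1 RNA-binding domain, had 34.7 FPKM in epic2 and 26.8 FPKM in wild type plants. The pentatricopeptide repeat protein PTAC2 had 25.5 FPKM in epic2 and 21.0 FPKM in wild type plants. PTAC6, a further subunit needed for greening, had the smallest called change of all members, at 55.1 FPKM in epic2 against 46.2 FPKM in wild type plants (log2 ratio 0.26, 95% interval 0.07 to 0.44, q = 0.0284 in the authors' deposited table). The intervals of these 4 genes overlap those of PTAC12 and FSD2, and differences in size of change between members were not tested.

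Rows of 3 genes in this group combine a member with neighbouring genes, and their values cannot be assigned to the member alone. The row of FSD3 also holds AT5G23330 and STE14A and stood at 77.3 FPKM in epic2 and 48.8 FPKM in wild type plants (q = 2.32e-07 in the authors' deposited table). The row of TRX z, a thioredoxin of the polymerase complex, also holds the importin gene IMPA-1, with 106.1 FPKM in epic2 and 80.8 FPKM in wild type plants. The row of MURE, a relative of a bacterial cell wall ligase, also holds SPPL2, with 51.4 FPKM in epic2 and 53.0 FPKM in wild type plants (q = 0.857 in the authors' deposited table). Without these 3 rows, all 9 PEP-associated proteins with a row of their own were called higher, with a median log2 ratio of 0.43. Over all tested rows, those of several genes included, 9.51% were called higher. The largest shifts in share within this group were those of PTAC7 and PTAC6. PTAC7 took 44.0% of the summed FPKM of these 9 genes in epic2 and 42.8% in wild type plants, and PTAC6 took 9.82% in epic2 and 11.0% in wild type plants.

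**Figure D2:**
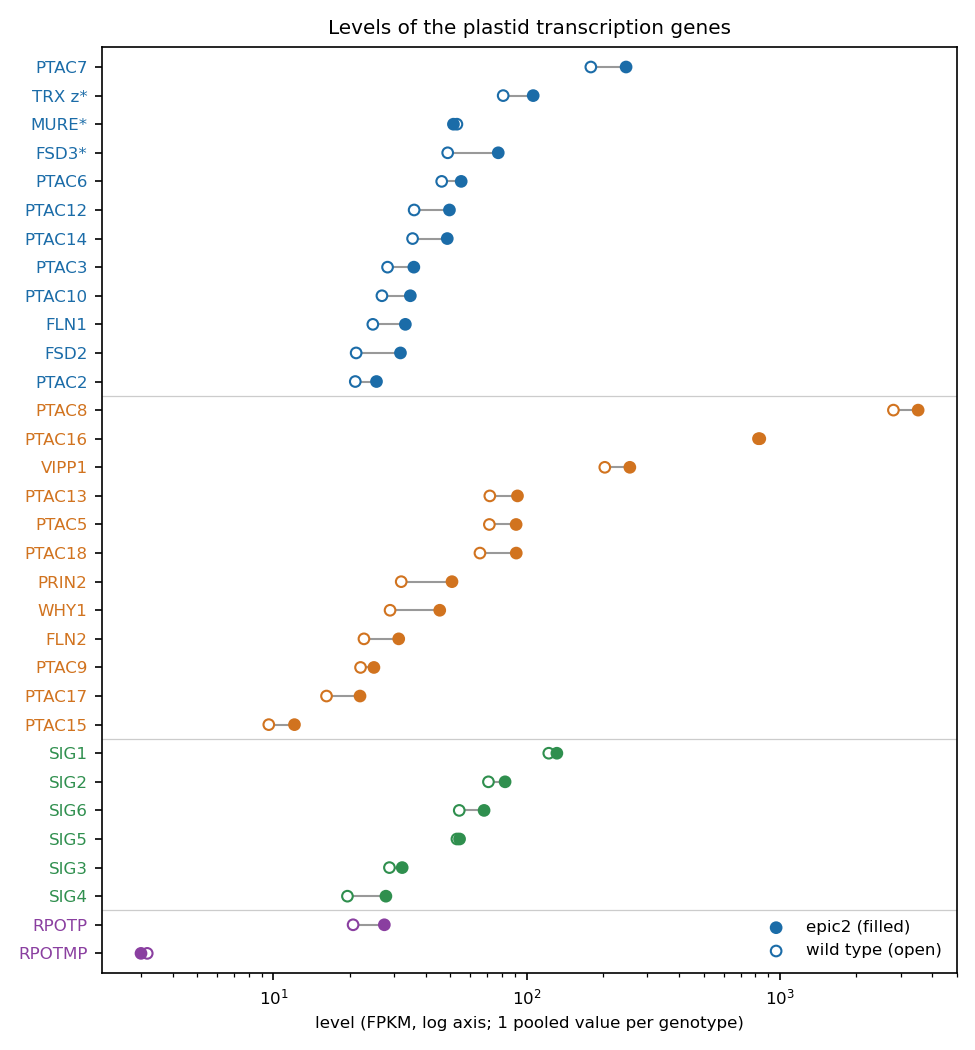
Level of each gene in FPKM (x axis, log scale), with filled points for epic2 and open points for wild type, 1 pooled value each, and genes grouped by role and ordered by the wild type level; an asterisk marks a row shared with another gene. The filled point lies to the right in 30 of 32 genes, while levels run from 3.00 FPKM (RPOTMP) to 3519 FPKM (PTAC8) in epic2.

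Of the 12 other nucleoid and redox partners 8 rose and 4 did not pass. That is 66.7% called higher, against 9.51% of all tested rows and 17.5% of those of similar level. WHY1, a Whirly protein that binds single-stranded DNA in the plastid and in the nucleus, had 45.4 FPKM in epic2 and 28.9 FPKM in wild type plants. Its log2 ratio of 0.65 ± 0.11 (implied standard error) had the smallest q of all members, 1.93e-08 in the authors' deposited table. PRIN2 (AT1G10522, chromosome 1, 3469512 to 3471488), a redox-linked regulator of the bacterial-type polymerase, had 50.7 FPKM in epic2 and 32.0 FPKM in wild type plants, and its log2 ratio of 0.67 ± 0.15 was the largest point estimate among members. By log2 ratio WHY1 stood above 96.2% and PRIN2 above 96.3% of all tested rows. The row intervals of PRIN2, FLN2 and PTAC7 overlap those of other rows, of which the first 2 were not called and the last was not tested: AT1G10530, at 0.438 FPKM in epic2 and 0.485 FPKM in wild type plants, the shared row of AT1G69210 and SIK1, at 14.5 FPKM in epic2 and 15.6 FPKM in wild type plants, and AT5G24316, listed at 0 FPKM in epic2 and 0.0935 FPKM in wild type plants.

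PTAC18, a cupin fold protein, had 91.0 FPKM in epic2 and 65.4 FPKM in wild type plants. PTAC17, a CobW-type protein, had 22.0 FPKM in epic2 and 16.2 FPKM in wild type plants. PTAC13, which resembles the bacterial elongation factor NusG, had 92.0 FPKM in epic2 and 71.6 FPKM in wild type plants. PTAC5, with a DnaJ-type zinc finger, lay close to it in both genotypes at 90.9 FPKM in epic2 and 71.3 FPKM in wild type plants. VIPP1, also named PTAC4 and needed to maintain thylakoid membranes, had 255.7 FPKM in epic2 and 203.6 FPKM in wild type plants. All 5 passed the authors' threshold, with log2 ratios between 0.33 and 0.48.

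The 4 that did not pass include the most abundant members. PTAC8, the thylakoid curvature protein CURT1B, had 3519 FPKM in epic2 and 2810 FPKM in wild type plants, with a 95% interval of the log2 ratio from -0.06 to 0.71. PTAC16, a thylakoid-associated protein with a nucleotide-binding fold, had 833.5 FPKM in epic2 and 823.7 FPKM in wild type plants, with an interval from -0.30 to 0.33. The implied standard errors of these 2 genes, 0.20 and 0.16, were the largest of all members, against a median of 0.10. PTAC9, the single-stranded DNA-binding protein OSB2, had 24.9 FPKM in epic2 and 22.1 FPKM in wild type plants (q = 0.266 in the authors' deposited table). PTAC15, of the mTERF family of organelle nucleic acid-binding proteins, had 12.1 FPKM in epic2 and 9.58 FPKM in wild type plants, and its q of 0.0535 in the authors' deposited table lay just outside the threshold.

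The upstream sequences of the member with the largest called change in this class that had a clear window, WHY1 (AT1G14410, chr1:4931081-4931330, minus strand), and of the member with the smallest change, PTAC16 (AT3G46780, chr3:17228392-17228641, plus strand), are shown so that a called and an uncalled gene of one class can be read side by side for short promoter motifs, and pairs of sigma factors and of phage-type polymerases follow with their results. The sequences are the 250 bases before the annotated gene start, from the RefSeq genome TAIR10.1, in lower case. Capitals mark matches on either strand to TGGGCC, a core of the site II elements that bind TCP factors, or its variant TGGGCT, to the telo box AAACCCTA, to the G-box CACGTG or to the I-box GATAAG.
WHY1: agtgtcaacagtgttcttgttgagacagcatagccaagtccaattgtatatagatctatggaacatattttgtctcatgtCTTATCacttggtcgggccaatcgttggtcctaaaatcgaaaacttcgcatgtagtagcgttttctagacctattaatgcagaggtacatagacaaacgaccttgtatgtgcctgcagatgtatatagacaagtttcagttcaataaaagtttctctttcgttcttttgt
PTAC16: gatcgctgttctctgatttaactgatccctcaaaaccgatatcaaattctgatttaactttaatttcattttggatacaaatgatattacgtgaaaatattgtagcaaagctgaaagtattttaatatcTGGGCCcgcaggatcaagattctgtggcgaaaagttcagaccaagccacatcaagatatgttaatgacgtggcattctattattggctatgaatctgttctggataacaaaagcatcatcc
The WHY1 window holds 1 match, to GATAAG, which begins 170 bases before the gene start. The PTAC16 window holds 1 match, to TGGGCC, which begins 121 bases before the gene start.

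Among the 6 sigma factors 2 rose and 4 did not pass. That is 33.3% called higher, of few genes, against 9.51% of all tested rows and 17.5% of those of similar level. SIG4 (AT5G13730, chromosome 5, 4429095 to 4430901), linked to transcription of the plastid gene ndhF, had 27.8 FPKM in epic2 and 19.6 FPKM in wild type plants (log2 ratio 0.50 ± 0.14, q = 0.00344 in the authors' deposited table). SIG6 (AT2G36990, chromosome 2, 15537225 to 15540139), which acts broadly in young seedlings, had 67.9 FPKM in epic2 and 54.2 FPKM in wild type plants (log2 ratio 0.33 ± 0.09, q = 0.00172 in the authors' deposited table). SIG2, which serves plastid tRNA genes, had 82.2 FPKM in epic2 and 70.7 FPKM in wild type plants, and its q of 0.0519 in the authors' deposited table lay just outside the threshold. The row interval of SIG4 overlaps that of AT5G13720, which stood at 29.6 FPKM in epic2 and 29.1 FPKM in wild type plants and was not called, and without stated strand their reads cannot be told apart where the genes overlap.

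For the other 3 sigma factors the interval included 0. SIG1, the most abundant, had 131.7 FPKM in epic2 and 122.3 FPKM in wild type plants, with a 95% interval of the log2 ratio from -0.08 to 0.29. SIG3, linked to psbN, had 32.2 FPKM in epic2 and 28.7 FPKM in wild type plants, with an interval from -0.02 to 0.35. SIG5, the sigma factor induced by blue light and stress that serves the psbD promoter, had 54.3 FPKM in epic2 and 53.1 FPKM in wild type plants. The interval for SIG5, -0.14 to 0.21, overlaps that of SIG6, 0.15 to 0.50, and the interval for SIG1 overlaps that of SIG4, 0.22 to 0.79. The intervals of SIG5 and SIG4 do not overlap, though the upper end of the first, 0.21, lies close to the lower end of the second, 0.22. Differences between sigma factors in size of change were not tested. As a share of the summed FPKM of the 6 sigma factors, SIG1 made up 33.2% in epic2 and 35.1% in wild type plants. SIG5 made up 13.7% in epic2 and 15.2% in wild type plants, while SIG4 made up 7.02% in epic2 and 5.62% in wild type plants. The upstream windows of SIG4 (chr5:4430902-4431151), with the largest called change of this class, and of SIG5 (chr5:8160344-8160593), with the smallest change, both lie on minus strand genes and are marked as above.
SIG4: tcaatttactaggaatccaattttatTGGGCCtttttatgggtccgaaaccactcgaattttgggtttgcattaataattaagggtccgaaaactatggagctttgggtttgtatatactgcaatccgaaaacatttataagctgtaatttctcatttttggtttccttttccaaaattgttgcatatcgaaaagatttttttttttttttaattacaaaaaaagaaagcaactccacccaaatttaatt
SIG5: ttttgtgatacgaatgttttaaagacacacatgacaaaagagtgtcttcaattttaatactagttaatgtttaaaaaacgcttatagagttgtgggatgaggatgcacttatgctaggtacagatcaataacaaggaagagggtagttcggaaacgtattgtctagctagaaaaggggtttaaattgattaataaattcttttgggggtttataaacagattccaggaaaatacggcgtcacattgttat
The SIG4 window holds 1 match, to TGGGCC, which begins 224 bases before the gene start, and the SIG5 window holds none of the 5 motifs. In this pair the called gene holds TGGGCC and the uncalled one does not, the reverse of the WHY1 and PTAC16 pair.

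Of the 2 phage-type polymerases 1 rose and 1 did not pass, while 9.51% of all tested rows were called higher. A share of 2 genes says little. RPOTP (AT2G24120, listed as SCA3), the plastid enzyme, rose to 27.4 FPKM in epic2, against 20.6 FPKM in wild type plants (log2 ratio 0.41 ± 0.09, q = 1.78e-04 in the authors' deposited table). RPOTMP (AT5G15700), which serves mitochondria and plastids, had 3.00 FPKM in epic2 and 3.17 FPKM in wild type plants, the lowest level of all members (log2 ratio -0.08, 95% interval -0.38 to 0.21). The interval of RPOTP, 0.22 to 0.60, lies just above that of RPOTMP, which ends at 0.21, and a test of their difference was not made. RPOTP was 9.14 times as high as RPOTMP in epic2 and 6.50 times as high in wild type plants. The mitochondrial relative RPOTM, which is no member and was named after its value was seen, had 7.94 FPKM in epic2 and 7.89 FPKM in wild type plants. Both upstream windows, from the same genome and with the same marking, lie on minus strand genes, RPOTP at chr2:10254642-10254891 and RPOTMP at chr5:5121842-5122091.
RPOTP: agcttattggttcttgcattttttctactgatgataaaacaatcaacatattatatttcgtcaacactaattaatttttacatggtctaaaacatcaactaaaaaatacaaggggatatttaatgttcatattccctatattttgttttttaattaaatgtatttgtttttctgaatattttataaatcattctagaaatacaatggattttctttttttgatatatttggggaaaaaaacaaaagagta
RPOTMP: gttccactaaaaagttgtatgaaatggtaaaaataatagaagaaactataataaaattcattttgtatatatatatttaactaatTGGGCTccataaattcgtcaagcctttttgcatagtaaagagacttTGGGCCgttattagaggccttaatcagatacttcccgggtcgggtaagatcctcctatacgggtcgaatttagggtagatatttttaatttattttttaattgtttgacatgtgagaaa
The RPOTP window holds none of the 5 motifs. The RPOTMP window holds TGGGCC, which begins 119 bases before the gene start, and TGGGCT, which begins 165 bases before it.

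The motif TGGGCC was present in the upstream windows of 3 of the 22 called members and of 7 of the 10 others, against 13.7% of the windows of 27443 protein-coding genes. It was found in 0 of 12 PEP-associated proteins, in 5 of 12 other partners, in 4 of 6 sigma factors and in 1 of 2 phage-type polymerases. Of the 32 windows 16 overlap an annotated neighbouring gene, which limits this count. Among the 16 that do not, TGGGCC was in 1 of 9 called members and in 5 of 7 others. The share among clear windows of all genes was not taken, so these counts have no matching background. TGGGCT was in 4 of 32 member windows (12.3% of all windows), the G-box CACGTG in 3, those of PTAC2, PTAC3 and PTAC17 (6.49% of all windows), and the I-box GATAAG in 2 (12.3%). The telo box AAACCCTA was in 0 member windows (4.49% of all windows). The evening element AAAATATCT was in 2, those of SIG3 and RPOTMP (2.36% of all windows). Apart from TGGGCC and its variant TGGGCT, which share their first 5 letters, the motifs are distinct. Matches are letters in a window and not tested binding sites, and the split by call was noticed after the calls were known and was not tested.

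**Figure D3:**
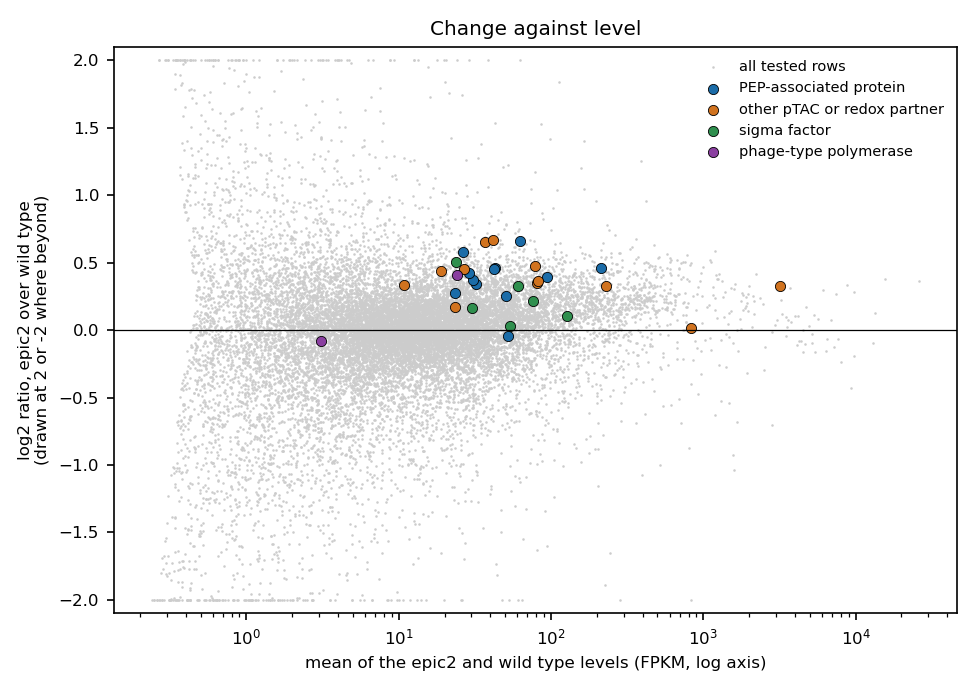
Log2 ratio of epic2 over wild type (y axis) against the mean of both levels in FPKM (x axis, log scale). Grey points are the 18832 of 18916 tested rows with levels above 0 in both genotypes, and the 32 genes are in colour by role. Rows beyond 2 or -2 are drawn at that value. The members span 3.09 to 3165 FPKM in mean level and 30 of 32 lie above 0.

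The 32 genes lie on all 5 nuclear chromosomes, with 10 on chromosome 1, 5 on chromosome 2, 7 on chromosome 3, 3 on chromosome 4 and 7 on chromosome 5. Their annotated coding sequences had a median of 6.5 exons, against 3 for all protein-coding genes, and a median protein length of 477 residues, against 348. Transcripts of the plastid genome itself, the product of this machinery, are not among the rows analysed here, which all lie on chromosomes 1 to 5. By level, 11 of the 32 members held the same place in both genotypes and 21 changed place, by at most 4 places. The 7 highest, PTAC8, PTAC16, VIPP1, PTAC7, SIG1, TRX z and PTAC13, kept their places, as did PTAC17, PTAC15 and RPOTMP at the low end.

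Genes that act next to this machinery were compared from 4 lists, which were chosen with earlier results of these data known. Their counts are therefore description and no independent finding. Over all tested rows 9.51% were called higher and 8.8% lower. Of rows at the members' interquartile levels 17.5% were called higher and 11% lower. Of 13 plastid RNA processing genes with a row, 9 rose, 0 fell and 4 did not pass, with a median log2 ratio of 0.41. The median level of this list was 224.9 FPKM in epic2 and 158.7 FPKM in wild type plants. No share of rows at such levels was taken. CP29A, a chloroplast ribonucleoprotein that stabilises plastid RNA, had 444.6 FPKM in epic2 and 278.7 FPKM in wild type plants. Its relative CP29B had 866.4 FPKM in epic2 and 610.0 FPKM in wild type plants. MORF9, an RNA editing factor, had 224.9 FPKM in epic2 and 158.7 FPKM in wild type plants. CP33A, another ribonucleoprotein, had 287.7 FPKM in epic2 and 210.3 FPKM in wild type plants.

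Of 10 genes of nucleoid and DNA maintenance 5 rose, 0 fell and 5 did not pass, with a median log2 ratio of 0.32. Over all tested rows 9.51% were called higher, and of rows at the members' interquartile levels 17.5%. WHY3, the second plastid Whirly protein, had 29.0 FPKM in epic2 and 20.3 FPKM in wild type plants (log2 ratio 0.51, q = 2.64e-04 in the authors' deposited table). WHY1 was 1.57 times as high as WHY3 in epic2 and 1.42 times as high in wild type plants. The gyrase subunit genes GYRB1, with 31.1 FPKM in epic2 and 23.7 FPKM in wild type plants, and GYRA, with 18.4 FPKM in epic2 and 14.4 FPKM in wild type plants, encode the enzyme that supercoils organelle DNA, and both were called. WHY2, the mitochondrial Whirly gene, was called as well at 41.2 FPKM in epic2 and 33.3 FPKM in wild type plants.

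The 12 genes listed as regulators of plastid transcription moved in both directions, with 4 called higher, 2 called lower and 6 not passing. The mitochondrial relative RPOTM is on this list and among the 6. Over all tested rows 9.51% were called higher and 8.8% lower. Of rows at the members' interquartile levels 17.5% were called higher and 11% lower. The rows of MTERF4, called higher, and of NCP, not called, each hold a neighbouring gene as well. Their values cannot be assigned to the listed gene alone. RCB, also called MRL7 and a partner of the polymerase complex, had 11.1 FPKM in epic2 and 6.27 FPKM in wild type plants (log2 ratio 0.82, q = 3.34e-05 in the authors' deposited table). PRDA1, needed for transcription by the bacterial-type polymerase, had 19.3 FPKM in epic2 and 12.4 FPKM in wild type plants. SIB1, which binds the sigma factor SIG1 and is known from defence signalling, fell to 2.34 FPKM in epic2, against 9.16 FPKM in wild type plants (log2 ratio -1.97, q = 1.11e-08 in the authors' deposited table). Its homolog SIB2 had 20.1 FPKM in epic2 and 26.6 FPKM in wild type plants and was called lower too.

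Among 14 tested light and retrograde signalling genes 2 rose, 1 fell and 11 did not pass, with a median log2 ratio of 0.00. The 14.3% called higher lay between the 9.51% of all tested rows and the 17.5% of rows at the members' levels. The row of HYH, which was not called, also holds RBL14. GUN1, a pentatricopeptide repeat protein of plastid-to-nucleus signalling, had 149.3 FPKM in epic2 and 112.8 FPKM in wild type plants. PHYB, a phytochrome photoreceptor, had 24.2 FPKM in epic2 and 20.3 FPKM in wild type plants. PIF4, a bHLH factor degraded through phytochromes, fell to 59.1 FPKM in epic2, against 72.9 FPKM in wild type plants. The chloroplast development regulators GLK1 and GLK2, named after their values were seen, were not called. GLK1 had 183.3 FPKM in epic2 and 165.7 FPKM in wild type plants, and GLK2 had 138.4 FPKM in epic2 and 138.3 FPKM in wild type plants.

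**Figure D4:**
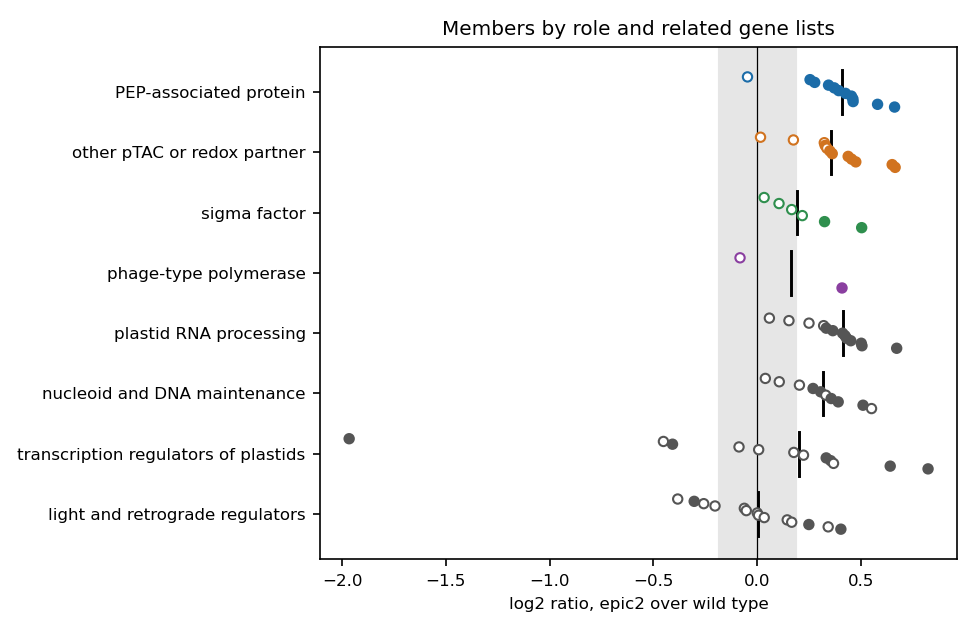
Log2 ratio of epic2 over wild type (x axis) for the tested genes of each role and related list (y axis), with filled points called, a black tick at each median and a grey band for the interquartile range of all tested rows. The ticks stand at 0.41 for the PEP-associated proteins and the RNA processing genes, 0.19 for sigma factors and 0.00 for light and retrograde regulators, and SIB1 is the point at -1.97.

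In bulk RNA of whole aerial parts, more or fewer cells of a type and more or less RNA per cell cannot be told apart. The 6 green leaf markers had a summed level of 44238 FPKM in epic2 and 45559 FPKM in wild type plants, and 0 of 6 were called, with implied standard errors of up to 0.61. The 6 root markers summed to 53.5 FPKM in epic2 and 131.3 FPKM in wild type plants, nearly all from PYK10, which is also made in shoots and was called lower. CASP1 was called higher at 1.52 FPKM in epic2 against 0.252 FPKM in wild type plants, RHD6 was listed at 0 in both, and the rest were under 0.1 FPKM. The 7 flower and seed markers summed to 3.18 FPKM in epic2 and 2.44 FPKM in wild type plants, with 0 of 3 tested genes called and SESA1 listed at 0 in both. Their part in the rise of the plastid transcription genes was not tested.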

How the data were processed

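RNA from 3 epic2 and 3 wild type samples was prepared with the TruSeq kit and sequenced from one end, per the labels' protocols. The submitters' processing notes name TopHat, Cufflinks and Cuffdiff with TAIR10, and versions, settings, strand and the scaling between libraries are not given in the sources used here. The authors deposited 1 FPKM value per genotype and row with the replicates pooled, a log2 fold change, and their own p-value and q-value. The authors' deposited test statistic, a score, has the sign opposite to the fold change. The ratios printed are epic2 over silex, computed from the FPKM values, and differed from the authors' log2 values by over 0.01 in 0 tested rows. The standard error is the log2 ratio divided by the statistic, and intervals are 1.96 standard errors on either side.

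Listed genes were joined to rows by name and position with TAIR10.1 RefSeq annotation. Of 102 listed genes 1 had no match. The members and lists were chosen with earlier results of these data known. Besides every member, up to 4 called genes per related list were named by size of change. Rows of several genes were kept as deposited. Calculations used numpy 2.4.6 and pandas 2.3.3 under Python 3.11.15, with scipy 1.17.1 for checks and matplotlib 3.10.9 for plots. The adjustment step was tested on simulated data. Alternatives were q of 0.01 or 0.10, Benjamini-Hochberg adjustment over all tested rows, a minimum of 1 FPKM, single-gene rows, pseudocounts of 1 and 0.1 FPKM, and centring. With no values per sample, depth is unknown and no replicate could be left out.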

Additional observations from a re-analysis of the deposited data

How the results depend on the processing

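The 22 members called higher and 0 called lower were unchanged with Benjamini-Hochberg adjustment over all tested rows and over rows of at least 1 FPKM. At a q of 0.01 the count was 19, with PTAC2, PTAC6 and PTAC10 no longer called, and at 0.10 it was 24, with PTAC15 and SIG2 added. Rows of a single gene gave 20 of 29, and the share over all single-gene rows was not taken. The median log2 ratio of the members was 0.36 and lay between 0.29 and 0.36 under other pseudocounts, a minimum of 1 FPKM and 3 ways of centring, the one on rows of the members' interquartile levels being chosen after seeing the data. Of all tested rows 5.92% were called higher at a q of 0.01 and 11.8% at 0.10. The share called lower was not taken at either threshold, so counts of lower genes there have no matching background. At 0.01 nucleoid and DNA maintenance genes called higher fell to 3 of 10, and regulators of plastid transcription called lower to 1 of 12. Of the 14 tested light and retrograde genes 1 was higher and 0 lower at 0.01, while 2 were lower at 0.10. The 9 plastid RNA processing genes called higher became 7 at 0.01 and 8 with Benjamini-Hochberg adjustment over all tested rows, where RNE lost its call, and 3 regulators of plastid transcription were lower at 0.10. No paired analysis was possible because the deposited table holds 1 pooled value per genotype, which also prevents leaving out a replicate. RECA1, at 37.4 FPKM in epic2 and 25.5 FPKM in wild type plants, has an implied standard error of 4.73. Its row interval overlaps that of PSBR, at 7065 FPKM in epic2 and 6694 FPKM in wild type plants.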
